A study of Mus musculus with 2 samples.

Results

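Imprinted domains of the mouse genome, 3 in number, were examined through 9 genes fixed by name: *Airn*, *Igf2r* and *Slc22a3* on chromosome 17, *H19* and *Igf2* on chromosome 7, and *Kcnq1ot1*, *Kcnq1*, *Phlda2* and *Slc22a18* further along chromosome 7. Of the 9, 8 were among the 37310 genes of the GENCODE M1 annotation (mm9). *Kcnq1ot1* was not in it, and was placed by its start site. Non-polyadenylated (NPA) RNA, the RNA left after repeated removal of polyadenylated transcripts on oligo(dT), had been sequenced with strand information from 1 library each of mouse R1 embryonic stem cells (ESCs, passage 18) and of neuronal progenitor cells (NPCs) derived from them. The ESCs were kept on feeder fibroblasts with leukemia inhibitory factor, whereas the NPCs grew 4 days as embryoid bodies without that factor, were replated on poly-L-ornithine and fibronectin, and were harvested at day 7. The ESC library held 4271306 placed reads and the NPC library 4399729.

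In an imprinted domain, a gene is read from the chromosome inherited from 1 parent and is silent on the other. In each of these 3 domains a long noncoding RNA is made from a single parental copy, under the control of a differentially methylated region, and protein-coding genes around it are made from the opposite copy. *Airn* and *Kcnq1ot1* are very long, mostly unspliced antisense RNAs that start within an intron of *Igf2r* and of *Kcnq1*, and both are known for silencing neighbours in cis. *H19* is a short spliced RNA that shares enhancers with *Igf2*, the gene of a fetal growth factor. The reads carry no parental information here, so that every value below is the sum over both copies.

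Each cell type is represented by a single library, so that differences between the cell types could not be tested. Intervals are exact 95% intervals that cover counting error only. They take each read as independent, so that PCR copies among the reads are not covered. A ratio compares the 2 libraries, not the cell types. Fewer cells of a type, less RNA per cell and a different removal of polyadenylated transcripts cannot be told apart in such a ratio.

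The markers fixed for each cell type were read first. In the NPC library, 8 of 10 measured pluripotency markers were more than 2-fold lower than in the ESC library (12.8% of all genes by exon reads) and none was higher (24.6% of all genes), and their summed level went from 2411 to 677 RPM (reads scaled to a library of 1000000). *Pou5f1*, which encodes the pluripotency factor Oct4 and was their most abundant gene, had 2623 ESC and 724 NPC reads. Neural progenitor markers summed to 88.0 RPM in the ESC and 92.7 RPM in the NPC library, with *Ncam1*, a neural adhesion molecule, the most abundant over both libraries together at 100 and 104 reads. *Tubb3*, a neuronal tubulin, led in the ESC library with 109 reads and *Nes*, which encodes nestin, in the NPC library with 121. Of 6 tested, 2 were more than 2-fold higher, near the share of all genes, and both had under 10 ESC reads and so passed the minimum only through the NPC library. *Sox3*, *Fabp7* and *Pax3* had 0 ESC reads.

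The extraembryonic endoderm list moved most. Of its 11 genes with at least 10 reads, 10 were more than 2-fold higher in the NPC library (24.6% of all genes), and its summed level went from 598 to 10914 RPM. Of those 10, 5 passed the minimum only through the NPC library, and the other 5 had at least 10 ESC reads. Its most abundant gene over both libraries together, the basement membrane collagen *Col4a1*, had 856 ESC and 20753 NPC reads, and *Ttr* was the 1 gene of the list at 0 reads, in the ESC library. Trophoblast markers had a sum of 4.21 and 31.6 RPM, with *Hand1* as the most abundant gene over both libraries together at 4 and 56 reads, *Eomes* at 12 and 14, and *Cdx2*, *Elf5* and *Prl3d1* at 0 in the ESC library. Of 4 tested, 3 were more than 2-fold higher (24.6% of all genes), each of which passed only through the NPC library. Fibroblast markers, which could come from feeder cells, summed to 68.6 and 66.8 RPM, with *Col1a2* the most abundant over both together at 51 and 165 reads and *Lum* at 0 in both. Of 7 tested, *Col1a2* was higher (24.6% of all genes) and 2 were lower (12.8% of all genes), *Pdgfrb* with 93 and 21 reads and *Thy1* with 79 and 12. The library labelled NPC was thus set apart from the ESC library far more by endoderm markers than by neural ones. With 1 library of each cell type, every higher value reported below goes along with the endoderm markers by design. The same holds, on few reads, for the trophoblast markers. The part of these markers in those values was not tested.

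Over whole gene bodies, all 9 genes had at least 10 sense reads in the libraries together. Of these, 5 were more than 2-fold higher in the NPC library (*Airn*, *Slc22a3*, *H19*, *Igf2* and *Phlda2*). The background was 21.2% of the 15973 genes with at least 10 reads. It was called with 1 read added to each count, which would leave every gene body call of the 9 genes the same. *Airn* and *Slc22a3*, with under 10 ESC reads, passed the minimum only through the NPC library, so that their call was in part fixed by it. *Kcnq1* alone was more than 2-fold lower, beside a background of 13.1%. With under 10 NPC reads, it passed the minimum only through the ESC library, so that its call too was in part fixed by it. *Igf2r*, *Kcnq1ot1* and *Slc22a18* stayed within 2-fold. Counting exon reads alone, 6 of the 9 could be read, of which 4 were higher (background 24.6%) and none lower (background 12.8%), with *Slc22a3* again passing only through the NPC library. The median gene was itself higher in the NPC library, by 0.27 on the log2 scale over gene bodies and 0.34 over exons. Under median-of-ratios scaling, 2307 genes in place of 3387 were more than 2-fold higher over gene bodies and 2850 in place of 2096 lower. Relative to that median, the log2 ratios were 3.61 for *Airn*, 3.93 for *Igf2*, 2.04 for *Phlda2*, 1.22 for *H19*, 0.39 for *Igf2r*, -0.01 for *Slc22a18*, -0.002 for *Kcnq1ot1* and -1.96 for *Kcnq1*. *Slc22a3* had 0 ESC reads and is given as a bound below.

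**Figure D1:**
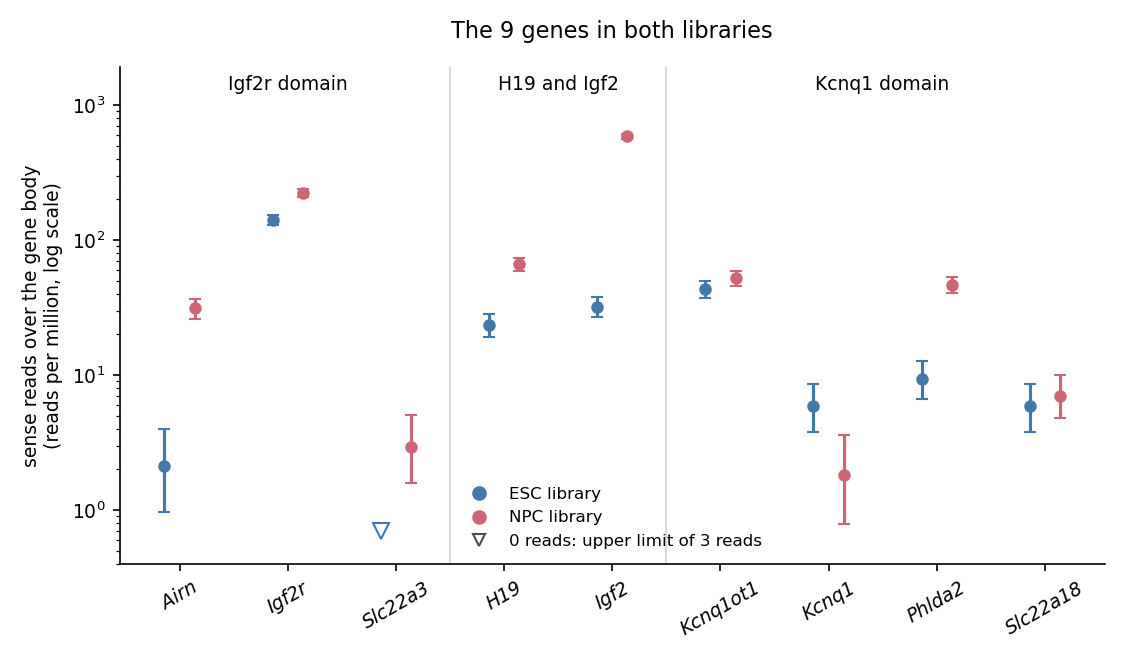
Sense reads over the gene body in RPM (log scale) for the 9 genes, with exact 95% Poisson intervals (counting error only); the open triangle is the upper limit of 3 reads for a count of 0. The intervals of the 2 libraries are apart for *Airn*, *Igf2r*, *H19*, *Igf2*, *Kcnq1* and *Phlda2*, and overlap for *Kcnq1ot1* and *Slc22a18*.

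Levels between genes were compared per length, as RPM per kilobase of exon (RPKM). These are levels in the NPA fraction, not of whole messenger RNAs. For exons of protein-coding genes, the study proposes that this fraction holds mainly partly degraded messengers. The same limit holds where a noncoding RNA is set against coding neighbours below. In the ESC library the order was *Igf2r* at 13.4 RPKM (12.3 to 14.6), *Phlda2* at 12.4 (8.84 to 16.8), *H19* at 9.87 (8.03 to 12), *Igf2* at 5.80 (4.86 to 6.86) and *Slc22a18* at 2.86 (1.77 to 4.37). *Phlda2* could not be separated from the genes on either side of it, whereas *H19* lay above *Igf2* beyond its interval. In the NPC library *Igf2* led at 107 RPKM (102 to 111), before *Phlda2* at 61.6 (53.4 to 70.6), *H19* at 27.9 (24.8 to 31.3), *Igf2r* at 21.4 (19.98 to 22.8) and *Slc22a18* at 3.70 (2.46 to 5.35), with none of these intervals overlapping. *Slc22a3*, *Airn* and *Kcnq1* stood below 1 RPKM over exons in both libraries.

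Of *Airn*, *H19* and *Kcnq1ot1*, *Airn* had the largest ratio between the libraries. It lies at chr17:12934177-13052988 on the plus strand and runs against *Igf2r* (chr17:12875272-12962530, minus strand), which encodes the receptor that clears Igf2 from the cell surface. Its RefSeq promoter matched mm9 chromosome 17 once, at the start that GENCODE M1 gives. The window is shown because reads on the *Airn* strand begin right after it, with the 50 transcribed bases in capitals (mm9 chr17:12933927-12934226, plus strand).
Airn: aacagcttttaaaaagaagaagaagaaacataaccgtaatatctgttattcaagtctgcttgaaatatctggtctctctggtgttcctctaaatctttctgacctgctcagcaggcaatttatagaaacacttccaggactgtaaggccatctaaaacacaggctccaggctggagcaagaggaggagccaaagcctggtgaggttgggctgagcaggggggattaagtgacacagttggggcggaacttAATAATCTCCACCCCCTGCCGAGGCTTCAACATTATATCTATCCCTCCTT

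On its own strand *Airn* had 9 ESC reads (4.12 to 17.1) and 137 NPC reads (115 to 162), or 2.11 and 31.1 RPM. The NPC library was 14.8-fold higher (7.56 to 33.0), and 160 of the 15973 genes tested over gene bodies, 1.00%, had a higher ratio. As *Airn* passed the minimum of 10 reads only through the NPC library, this rank was in part fixed by that minimum. The reads were scattered: the 9 ESC reads came from 9 start positions and the 137 NPC reads from 117, and with each start counted once the ratio was 10.8 (5.48 to 24.1). Nearly all were intronic, since exons of *Airn* held 0 ESC and 5 NPC reads. Reads whose sequence occurs once in mm9 made up 8 of the 9 and 134 of the 137.

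Along *Airn*, reads began at its start and thinned out slowly. Per 10 kb from the start, the NPC library held 34, 19, 19, 19, 6, 19, 12, 8 and 1 reads, and none after 90 kb of a gene model of 118.8 kb. The nearest read began 106 nt after the start, the median distance was 29.6 kb and the farthest 87.0 kb. In the ESC library the 9 reads lay between 297 nt and 53.0 kb from the start. On the same strand in the 60 kb before the start, the NPC library had 0 reads and the ESC library 2. The 34 reads of the first 10 kb in the NPC library came from 33 starts. In windows of 10 kb that lie over 10 kb from any gene on chromosome 17, a strand held 0.496 reads on average in that library, 94.3% were empty and 8 of 7528 (0.106%) had as many starts. The 3 ESC reads of that bin were matched or passed in starts by 1.79% of such windows.

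**Figure D2:**
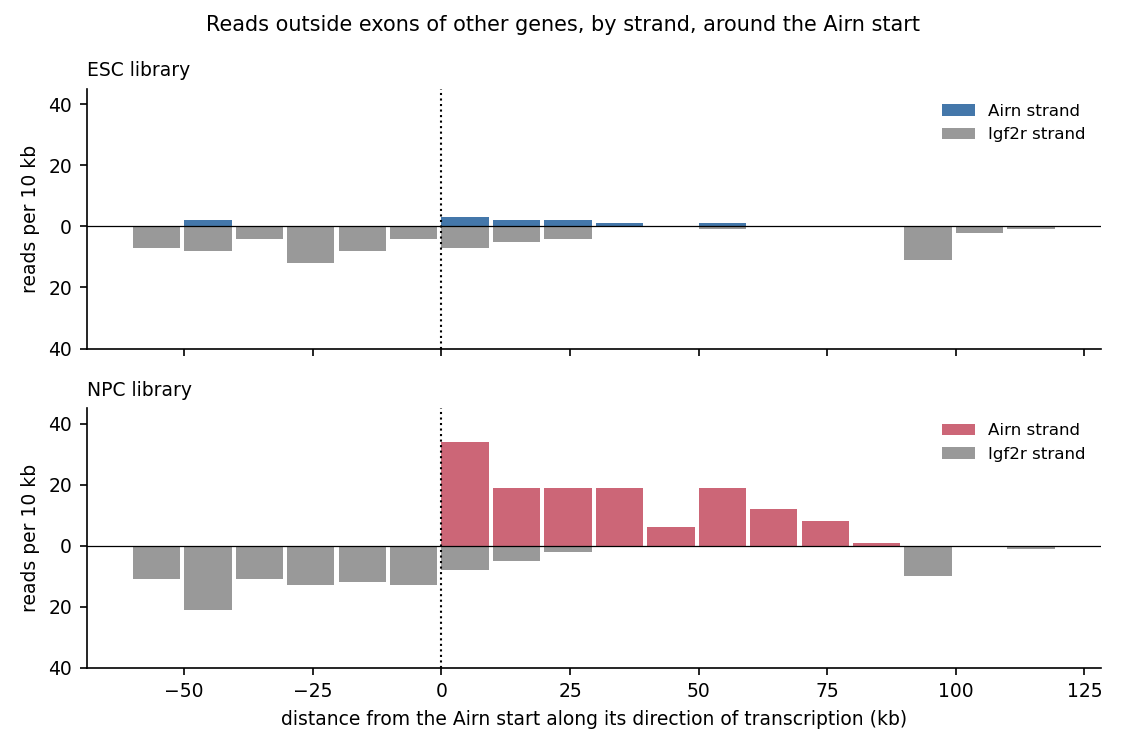
Reads per 10 kb by distance from the *Airn* start (kb, along its direction of transcription), upward for the *Airn* strand and downward for the *Igf2r* strand, leaving out reads over exons of other genes. In the NPC library the *Airn* strand holds 34 reads in the first 10 kb and some in each of the first 9 bins, while before the start it holds none.

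*Igf2r* was within 2-fold, with 601 ESC and 982 NPC sense reads over its body, a ratio of 1.59 (1.43 to 1.76). Its exons gave 1.59 (1.43 to 1.77) and its introns 1.56 (1.12 to 2.20), and with each start counted once the body gave 1.25 (1.09 to 1.42). The gene falls into a first part of 28.4 kb that *Airn* overlaps and a part of 58.9 kb beyond the *Airn* start. In the overlapped part, introns of *Igf2r* held 16 ESC and 15 NPC reads, a ratio of 0.910 (0.419 to 1.97). Beyond it they held 43 and 80, a ratio of 1.81 (1.23 to 2.68). Exons gave 0.910 (0.419 to 1.97) in the overlapped part, on 16 and 15 reads, and 1.61 (1.45 to 1.80) beyond it, on 525 and 872. The intervals of the parts overlap for introns and for exons, and a difference between the parts was not tested. On the opposite strand beyond the *Airn* start, *Igf2r* had 2 ESC and 0 NPC reads beside 568 and 952 on its own strand, a share of at most 1.26% and 0.387% by the exact binomial interval, and so little reached the wrong strand.

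Set against *Igf2r*, *Airn* went from 1.5 to 14 reads per 100 *Igf2r* reads, a ratio of ratios of 9.31 (4.71 to 21.0). Intron levels per length are given over the annotated length, since the part removed by the repeat filter was not measured here, and their comparison between genes is limited by that. Introns of *Airn* had 0.0184 RPKM (0.00843 to 0.0350) in the ESC library, beside 0.177 (0.135 to 0.229) for introns of *Igf2r*. In the NPC library the values were 0.263 (0.220 to 0.311) and 0.277 (0.224 to 0.339), whose intervals overlap.

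*Slc22a3*, an organic cation transporter that *Airn* silences in the placenta, lies at chr17:12612838-12700570 on the minus strand. It had 0 ESC reads, which allows up to 3, and 13 NPC reads (6.92 to 22.2), each from its own start and all exonic. The NPC library was thus at least 4.21-fold higher, or 2.24-fold at the lower end of its count. Against *Slc22a3*, *Airn* could not be placed, as the interval of the ratio of ratios ran from 0 to 6.05. The antisense strand of *Slc22a3* held 25 ESC and 38 NPC reads, but from 2 and 3 start positions, and no read among them has a sequence that occurs once in mm9, so that they cannot be assigned to this locus. The minus strand of *Airn* beyond *Igf2r* likewise held 39 and 49 reads, of which 23 and 34 lay in the pseudogene *Gm7162* and 7 in each library had a sequence that occurs once.

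Of the 9 other genes of this domain, 5 had at least 10 reads and none was beyond 2-fold. Of all genes, 21.2% were higher and 13.1% lower by the same count, so that none among 5 is near that share. *Tcp1*, a chaperonin subunit, had a ratio of 0.876 (0.825 to 0.93), *Sod2*, the mitochondrial superoxide dismutase, 0.927 (0.804 to 1.07), *Mrpl18*, a mitochondrial ribosomal protein, 1.00 (0.704 to 1.42), *Acat2*, a thiolase, 1.17 (0.934 to 1.46) and *Wtap*, a subunit of the RNA methylation complex, 1.81 (1.58 to 2.08). *Slc22a2* and *Plg*, on the far side of *Igf2r*, had 0 sense reads in both libraries.

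*H19* and *Igf2* were both higher in the NPC library, *Igf2* by far the more. *H19* lies at chr7:149761434-149764048 and *Igf2* at chr7:149836673-149852721, both on the minus strand. *H19* had 100 ESC reads (81.4 to 122) and 291 NPC reads (259 to 326), a ratio of 2.83 (2.24 to 3.58). They began at 57 and 132 positions, and with each counted once the ratio was 1.92 (1.40 to 2.67), below 2-fold. All 4 exons were higher, from 2.22-fold (1.15 to 4.5) in the second to 3.52-fold (2.43 to 5.21) in the first. No read fell in its introns in either library, and its antisense strand held 0 and 1.

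*Igf2* had 136 ESC reads (114 to 161) and 2579 NPC reads (2480 to 2681), a ratio of 18.4 (15.5 to 22.0), and 126 genes of the 15973 had a higher one. The NPC reads piled up: they began at 642 positions, with 240 at the most used, and with each start counted once the ratio was 6.91 (5.45 to 8.87). Its last exon of 3285 nt held 132 ESC and 2354 NPC reads, 97.1% and 91.5% of the exon reads. Of the alternative first exons, the one of 109 nt had 1 ESC and 16 NPC reads and the one of 1126 nt 0 and 41, whereas the exons of 41 and 60 nt farthest from the coding part had none in either library and the one of 374 nt had 1 NPC read. Introns held 0 and 5 reads.

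**Figure D3:**
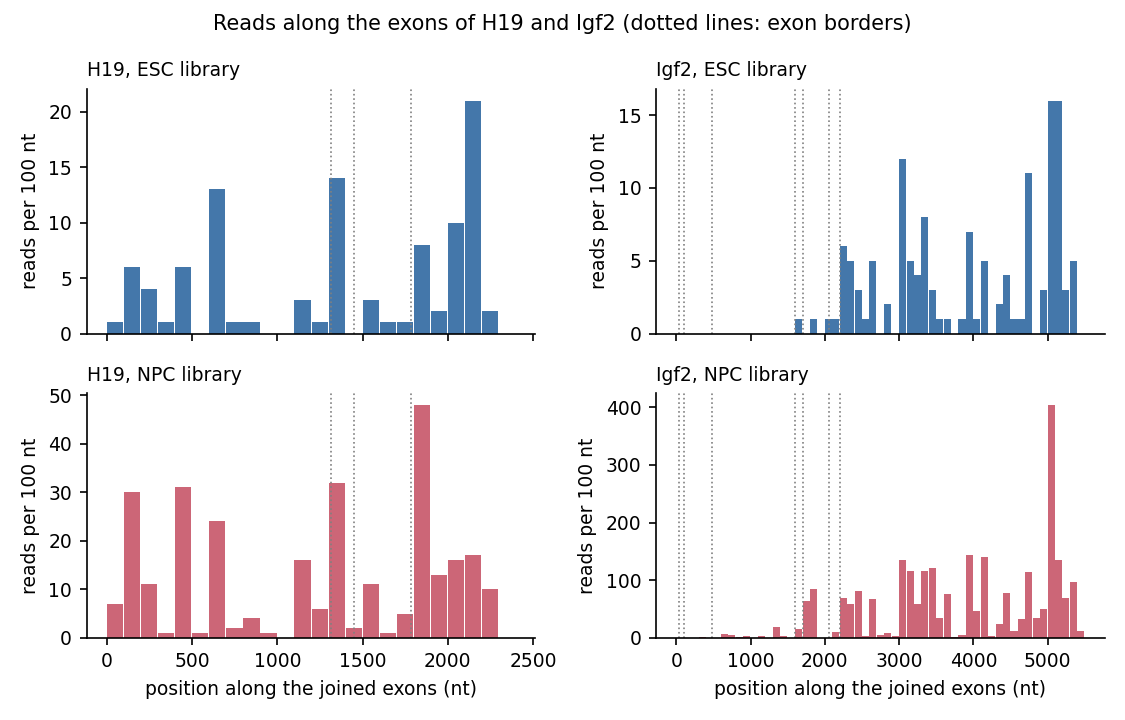
Reads per 100 nt by their start along the joined exons, 5′ to 3′ (nt), with exon borders dotted; the vertical scale differs between panels. In *Igf2* the reads gather in the last exon in both libraries, whereas *H19* is covered along its length.

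Against *Igf2*, *H19* was lower in the NPC library: it went from 73.5 to 11.3 reads per 100 *Igf2* reads, a ratio of ratios of 0.154 (0.114 to 0.207). With each start counted once this was 0.278 (0.185 to 0.420). On the strand opposite *Igf2*, *Igf2as* (chr7:149845598-149856261, plus strand), an antisense RNA that overlaps the upstream exons, had 1 ESC and 38 NPC reads, a ratio of 36.9 with a wide interval (6.23 to 1495). *Tnnt3*, a skeletal muscle troponin, had 0 ESC and 15 NPC reads. *Mrpl23*, a mitochondrial ribosomal protein, and *Lsp1*, a leukocyte actin-binding protein, had ratios of 0.92 (0.567 to 1.49) and 1.46 (0.612 to 3.62). Among the 9 other genes of the domain, 4 had at least 10 reads and 2 of those, *Igf2as* and *Tnnt3*, were more than 2-fold higher, beside 21.2% of all genes. Both reached 10 reads only through the NPC library, so that their count carries no weight. *Mir675*, which lies in the first exon of *H19*, and *Mir483*, in an intron of *Igf2*, had 0 reads in both libraries, which allows up to 0.702 RPM in the ESC and 0.682 RPM in the NPC library.

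Between *H19* and *Igf2* lies the imprinting control region, whose unmethylated maternal copy binds the insulator protein Ctcf. The window from 2 to 4 kb before the *H19* start (chr7:149766049-149768048) held 0 reads on both strands in both libraries, and the whole 72.6 kb between the genes held 4 ESC and 3 NPC reads, all on the plus strand. The letters GGNGGCAG of the Ctcf core, searched on both strands, occur 5 times in that window. They are shown because the region that Ctcf binds is the best known element of the domain. Which of the 5 matches Ctcf binds was not tested. The match is in capitals (mm9, minus strand, sites 1 to 5 by increasing coordinate, from 149766204 to 149767956).
Site 1: gatgccgcgtGGTGGCAGtacaatacta
Site 2: gctaccgcgcGGTGGCAGcatactccta
Site 3: gttgccgcacGGCGGCAGtgaagtctcg
Site 4: atgccactagGGGGGCAGgacacatgca
Site 5: gttgccgcgtGGTGGCAGcaaaatcgat

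Of 22380 protein-coding genes, 0.344% had as many such matches 2 to 4 kb before their start, where the median was 1. The letters TGCCGC of Zfp57, a zinc finger protein that keeps imprints methylated, also occur 5 times in the window, beside 0.0536% of genes with as many and a median of 0. Of the printed sites, 3 hold them just before the Ctcf letters without overlap. Printed site 3 also holds their reverse complement inside the Ctcf letters, so that these matches overlap. Within 2 kb on each side of the start, *Airn* had 8 matches of TGCCGC (0.170% of genes with as many) and *Kcnq1ot1* 3 (10.8%), beside a median of 1. These are matches of letters and not binding sites.

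*Kcnq1ot1* was read in both libraries at about the same level. Its RefSeq promoter matched mm9 chromosome 7 once, on the minus strand inside *Kcnq1* (chr7:150293159-150612955, plus strand), a potassium channel gene, and put its start at 150482452. The window is shown because reads appear on the antisense strand of *Kcnq1* right after it, with the 50 transcribed bases in capitals (mm9 chr7:150482403-150482702, minus strand).
Kcnq1ot1: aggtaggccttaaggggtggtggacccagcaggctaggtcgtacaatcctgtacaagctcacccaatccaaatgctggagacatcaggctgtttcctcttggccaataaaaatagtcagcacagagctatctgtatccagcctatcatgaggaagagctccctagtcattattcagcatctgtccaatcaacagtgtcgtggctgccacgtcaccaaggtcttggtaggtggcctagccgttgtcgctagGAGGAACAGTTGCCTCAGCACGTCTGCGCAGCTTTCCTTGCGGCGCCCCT

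The window holds the letters CCAAT, which factor NF-Y binds, 3 times over both strands, as do 3.37% of the 32851 RefSeq promoters of this length (at least 3). This motif was chosen after the sequence was seen. The *Airn* window holds none and that of *H19* 1, and TGCCGC and GGNGGCAG occur in none of the 3, beside 11.6% and 12.6% of all promoters with at least 1.

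Between its start and the *Kcnq1* start, 189 kb away, the *Kcnq1ot1* strand held 184 ESC reads (158 to 213) and 229 NPC reads (200 to 261), or 43.1 and 52.0 RPM. The ratio was 1.21 (0.991 to 1.48), an interval that takes in 1, and it lay at the median of all genes. The reads came from 153 and 200 start positions, and 180 and 223 of them had a sequence that occurs once in mm9. Of all reads in this stretch, 92.0% (87.3 to 95.4) were on the *Kcnq1ot1* strand in the ESC library and 97.9% (95.1 to 99.3) in the NPC library. After the start, in the remaining 131 kb of *Kcnq1*, that strand held 0 ESC and 1 NPC reads. The boundary at the matched start was thus sharp in both libraries, with the nearest reads 2 nt (ESC) and 179 nt (NPC) after it.

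Away from the start the reads became fewer. Per 10 kb, the ESC library held 75, 43, 30, 19, 6, 9 and 1 reads and the NPC library 65, 62, 41, 25, 17, 10 and 7, with 1 and 2 reads beyond 70 kb. The median distance from the start was 12 kb in the ESC and 17.9 kb in the NPC library. The first 10 kb held 40.8% of the ESC reads (33.6 to 48.2) and 28.4% of the NPC reads (22.6 to 34.7), intervals that overlap a little, and the first 30 kb 80.4% (74.0 to 85.9) and 73.4% (67.1 to 79.0), which overlap more. For *Airn* in the NPC library the first 30 kb held 52.6% (43.9 to 61.1), below the interval of *Kcnq1ot1* in the same library. In the ESC library it was 77.8% on 9 reads, with an interval (39.99 to 97.2) that takes in that of *Kcnq1ot1*. In the intergenic windows of chromosome 7, a strand held 0.426 ESC and 0.402 NPC reads per 10 kb, and 0.0506% and 0.0809% of them had as many starts as the first bin of *Kcnq1ot1* (64 and 54).

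**Figure D4:**
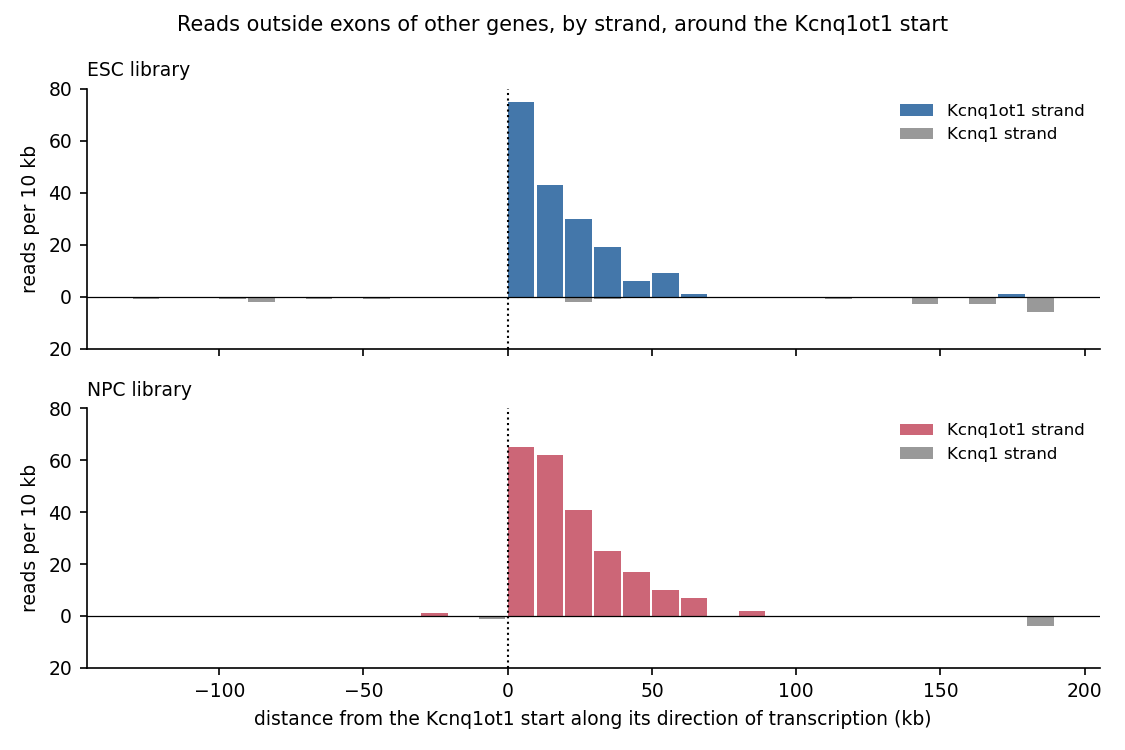
Reads per 10 kb by distance from the *Kcnq1ot1* start (kb, along its direction of transcription), upward for the *Kcnq1ot1* strand and downward for the *Kcnq1* strand, leaving out reads over exons of other genes. The *Kcnq1ot1* strand steps from 0 to 75 (ESC) and 65 (NPC) reads at the start and falls to 1 and 7 in the seventh bin.

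The antisense reads of *Kcnq1* were set beside those of other long genes. Among 2735 protein-coding genes of at least 50 kb with no annotated gene on the other strand, a comparison chosen after the values were seen, none had more distinct antisense starts in its introns than *Kcnq1* in either library. The next gene was *Esrrb*, an orphan nuclear receptor of pluripotency, with 125 in the ESC library, and *Aplp2*, of the amyloid precursor family, with 68 in the NPC library. Per length of gene, 4 genes in the ESC and 2 in the NPC library had a higher density of such starts than *Kcnq1*. In 52.9% of these genes (ESC) and 50.5% (NPC) there was no such read.

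*Kcnq1* itself was nearly silent in sense, with 25 ESC reads (16.2 to 36.9) and 8 NPC reads (3.45 to 15.8), of which 3 in each library were exonic. The NPC library was 3.22-fold lower (1.41 to 8.26) over the body, a ratio of 0.311, while the exon reads gave a ratio of 0.971 (0.130 to 7.25). With each start counted once the body gave 0.158 (0.0394 to 0.468), and with intervals under 48 nt left out 0.205 (0.0508 to 0.618). The 8 NPC reads had 4 start positions. Sense reads were found on both sides of the *Kcnq1ot1* start, 16 before and 9 after it in the ESC library and 5 and 3 in the NPC library.

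*Phlda2* (chr7:150687450-150688446, minus strand), a growth-restraining gene of the placenta, went the other way. It had 40 ESC reads (28.6 to 54.5) and 205 NPC reads (178 to 235), a ratio of 4.98 (3.53 to 7.17). Those reads began at 17 and 66 positions, and counting each once gave 3.22 (1.87 to 5.85). *Slc22a18* (chr7:150659626-150685239, plus strand), a transporter gene beside it, had 25 ESC reads (16.2 to 36.9) and 31 NPC reads (21.1 to 44.0), a ratio of 1.20 (0.688 to 2.13), which leaves a change of up to about 2-fold undetectable at this depth.

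The ratio of *Kcnq1ot1* to its neighbours therefore depended on the neighbour. Against *Slc22a18* the ratio of ratios was 1.00 (0.547 to 1.83). Against *Kcnq1* it was 3.88 (1.65 to 10.2), or 6.83 (2.24 to 27.9) with each start counted once, and against *Phlda2* 0.243 (0.160 to 0.364). Against the 3 summed, *Kcnq1ot1* went from 204 to 93.9 reads per 100, a ratio of ratios of 0.460 (0.332 to 0.633), and with each start counted once 0.826 (0.550 to 1.23).

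Of the 13 other genes of this domain, 11 had at least 10 reads, and with 1 read added to each count 3 were more than 2-fold higher and 1 lower, which is near the 21.2% and 13.1% of all genes. *Cdkn1c*, the cell cycle inhibitor p57 and the nearest imprinted gene after *Kcnq1*, had 87 ESC reads and 1596 NPC reads, a ratio of 17.8 (14.3 to 22.4). It had 43 and 233 start positions, and the most used one held 269 of the NPC reads. Against *Cdkn1c*, *Kcnq1ot1* was 14.7-fold lower in the NPC library (10.9 to 19.9). With each start counted once, *Cdkn1c* was 4.49-fold higher (3.23 to 6.37) and *Kcnq1ot1* 4.14-fold lower against it (2.77 to 6.26). *Ascl2*, a transcription factor of the trophoblast, had 21 and 59 reads, a ratio of 2.73 (1.63 to 4.73), and *Osbpl5*, a lipid transfer protein, 37 and 122, a ratio of 3.20 (2.20 to 4.76). *Tnfrsf22*, a decoy receptor gene, was the lower one, with 7 and 3 reads, a ratio of 0.416 whose interval (0.0694 to 1.82) takes in 1.

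The remaining 7 stayed within 2-fold by the same count, among them every gene of the domain with over 300 reads in the ESC library. *Cd81*, a tetraspanin, had a ratio of 0.694 (0.638 to 0.756), *Nap1l4*, a histone chaperone, 1.28 (1.13 to 1.45) and *Cars*, a transfer RNA synthetase, 1.18 (1.04 to 1.35). *Dhcr7*, the last enzyme of cholesterol synthesis, had 0.520 (0.419 to 0.643) and *Tssc4*, a spliceosome assembly factor, 1.42 (1.02 to 1.98). *Tnfrsf23*, another decoy receptor gene, and *Tspan32*, a tetraspanin, had 0.539 (0.142 to 1.79) and 2.27 (0.517 to 13.6).

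**Figure D5:**
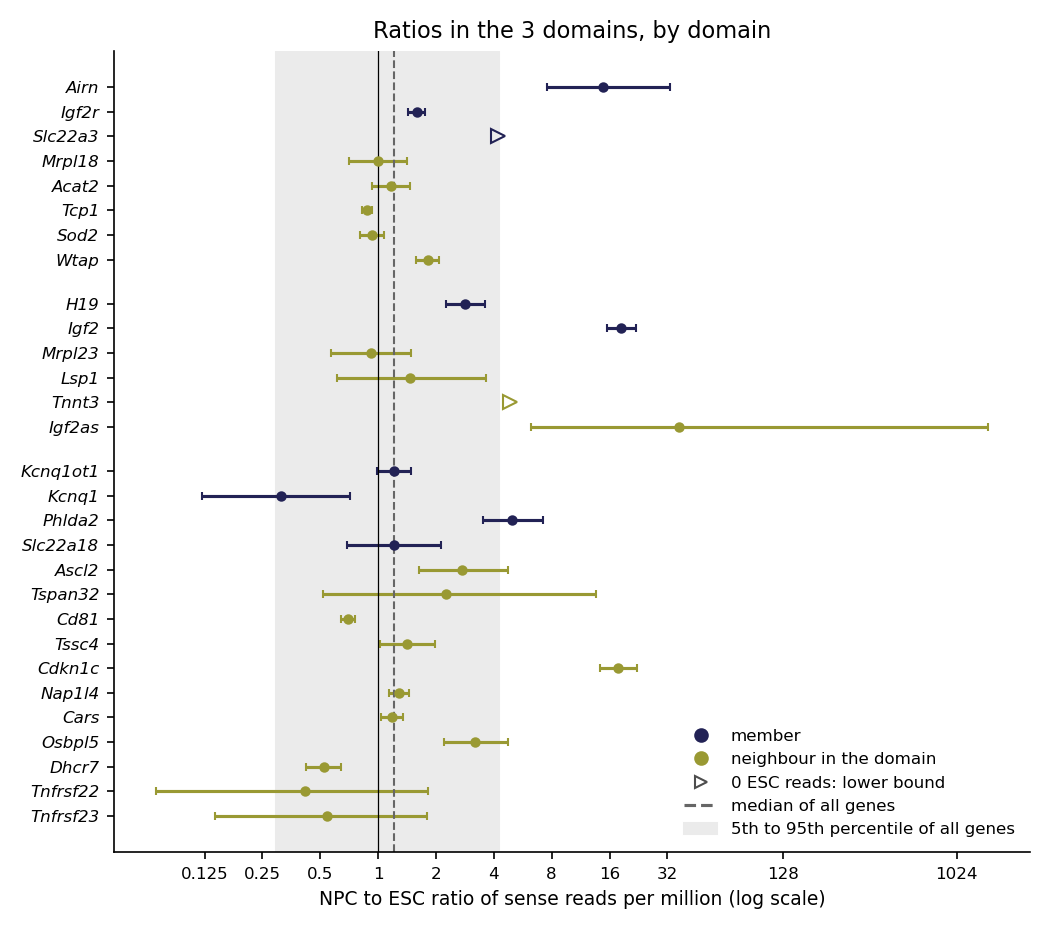
NPC to ESC ratio of sense RPM over the gene body (log scale) for the 9 genes and for their neighbours with at least 10 reads, with exact 95% intervals (counting error only), beside the median and the 5th to 95th percentile of all genes with at least 10 reads. *Airn*, *Igf2*, *Igf2as* and *Cdkn1c* lie above the percentile band with their whole interval, and open triangles are lower bounds for genes with 0 ESC reads.

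The 3 noncoding RNAs were also set against one another, a comparison that was chosen after the data were seen. *Airn* was higher in the NPC library relative to *Kcnq1ot1*, by a ratio of ratios of 12.2 (6.01 to 28) and relative to *H19*, by 5.22 (2.54 to 12.1), as was *H19* relative to *Kcnq1ot1*, by 2.34 (1.72 to 3.19), each interval leaving out 1.

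Genes that act on imprints were read from a list of 18, all with at least 10 exon reads. Their median log2 ratio was 0.15, beside 0.34 for all genes, and 15 stayed within 2-fold, with 2 higher and 1 lower beside 24.6% and 12.8% of all genes. *Trim28*, the corepressor that Zfp57 brings to imprinted regions, had 3057 ESC and 3244 NPC reads, a ratio of 1.03 (0.980 to 1.08). *Dnmt1*, the maintenance DNA methyltransferase, had 0.821 (0.751 to 0.896) and *Rnf2*, a catalytic subunit of Polycomb complex PRC1, 1.35 (1.22 to 1.5). The de novo methyltransferase *Dnmt3b* was higher by 4.54-fold (3.77 to 5.49), as was *Ring1*, a paralog of *Rnf2*, by 3.16-fold (1.77 to 5.92). *Dppa3*, an oocyte and stem cell protein that shields maternal imprints, had 15 and 7 reads, a ratio of 0.453 whose interval (0.156 to 1.18) takes in 1. It was the lower one, and passed the minimum of 10 reads only through the ESC library, so that its call was in part fixed by it.

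A list of 14 genes held *Igf1* and genes that bind Igf2, carry its signal or bind its messenger RNA. Of the 14, 12 had at least 10 exon reads, with 5 more than 2-fold higher and 2 lower, beside 24.6% and 12.8% of all genes, and a median log2 ratio of 0.81 beside 0.34. All 3 members of the RNA-binding family that includes *Igf2bp1* were higher, by 2.32-fold (2.16 to 2.49) for *Igf2bp1*, 2.40-fold (1.82 to 3.20) for *Igf2bp2* and 2.59-fold (2.14 to 3.16) for *Igf2bp3*. *Irs1*, an adaptor of the insulin and Igf1 receptors, was 10.8-fold higher (7.13 to 16.9), with 25 and 277 reads. The binding protein *Igfbp5* had 0 ESC and 65 NPC reads and passed the minimum only through the NPC library. *Igfbp2*, with 2272 and 476 reads, was 4.92-fold lower and *Igfbp4*, with 183 and 71, 2.65-fold lower.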

How the data were processed

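NPA RNA of 1 ESC and 1 NPC library had been fragmented, ligated and sequenced with strand information on a SOLiD instrument. The authors aligned the reads to mm9 with Bowtie, allowing mismatches and without requiring a unique position, and removed reads of the mitochondrion, ribosomal RNA and Repeat Masker regions (study methods, Bowtie version not given in the sources used here). The deposited files list each placed read with its chromosome, interval, strand and 48-nt sequence, and hold no normalized value. Intervals under 48 nt, 3.77% of ESC and 4.23% of NPC reads, were kept. In all, 78.2% of ESC and 83.2% of NPC reads have a sequence that occurs once in mm9. These reads had 1531216 and 1848069 distinct starts.

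Reads were counted over GENCODE M1 genes by strand when overlapping by at least 1 base, exons first, and intron reads over exons of another gene on the same strand were left out. Counts were scaled by the library total, and 1 read is worth 0.234 (ESC) or 0.227 RPM (NPC). A ratio is NPC over ESC, and 1 read was added to each count for calls over gene lists. A count of 0 was taken as at most 3 reads. Poisson, Clopper-Pearson, conditional binomial and conditional odds ratio intervals (95%) were computed with SciPy 1.17.1. Calls used genes with at least 10 reads in both libraries together. The 10 genes with the most reads, among them *Snora65*, *Gas5* and *Eif4a2*, took 14.4% of ESC and 5.56% of NPC reads. Counting was tested on simulated data.

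*Kcnq1ot1* was placed by its RefSeq promoter (GRCm38.p6), which matched mm9 chromosome 7 once. Of the *H19* start, the position in GENCODE M1 was used. The genes and lists were chosen with earlier results of these data known. Always named are all 9 genes, neighbours with at least 10 reads, of the other lists the 3 with the most reads and all beyond 2-fold (with at least 10 reads), and of marker lists the most abundant gene. Some genes without reads, some further markers and *Igf1* are named as well. *Tfcp2l1*, *Sox1*, *Tfap2c* and *Peg13* were not matched in the annotation.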

Additional observations from a re-analysis of the deposited data

How the results depend on the processing

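No paired analysis was possible because each cell type has 1 library, and for the same reason no library could be left out. Of 119 recomputed values of the main comparisons, 99 stayed within their interval or within 1.5 times the main count, 17 moved and 3 changed direction, and of 61 for the other genes 52 stayed and 9 moved. Counting starts once for *Cdkn1c* and for pairs of single genes was chosen after seeing the data, as were the comparisons of the 3 noncoding RNAs with one another and of *Kcnq1ot1* with *Cdkn1c*. Counting each start once gave 1.92 for *H19*, 0.278 for *H19* against *Igf2* and 0.826 for *Kcnq1ot1* against its neighbours. Exons alone, with 1 read added, gave 5.82 for *Airn*. *Airn* against *Slc22a3* alone, with 1 read added, gave 0.986, and *Kcnq1ot1* gave 3.88 against *Kcnq1*, 0.243 against *Phlda2* and 1.00 against *Slc22a18*. With intervals under 48 nt left out, the *Kcnq1ot1* strand took 99.5% of all reads of its stretch in the NPC library. The share of the *Airn* strand over *Airn*, unlike that of *Kcnq1ot1*, left out reads over exons of other genes. With sequences that occur once, this *Airn* share was 89.9% in place of 84.0% in the NPC library. In the ESC library it was 29.6% in place of 22.5% (10.8 to 38.5). In bins of 5 kb in place of 10 kb, the run of bins with reads from the start was 5 kb in place of 40 kb for *Airn* in the ESC library, 45 kb in place of 90 kb in the NPC library, and 65 kb in place of 70 kb for *Kcnq1ot1* in the ESC library. Genes more than 2-fold higher numbered 3658 by exon reads and 3387 by gene bodies, which became 1714 and 1586 with each start counted once. Under median-of-ratios scaling, exon reads gave 2338 higher in place of 3658 and 2766 lower in place of 1908. Genes more than 2-fold lower numbered 1908 and 2096, which became 1107 and 1174 with at least 50 reads and 3955 and 4273 with at least 1 read. The cause of these shifts was not tested, beyond the number of genes that a filter admits. Depth limits *Slc22a3*, *Kcnq1*, *Slc22a18* and *Airn*, each with 25 sense reads or fewer in at least 1 library.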

Other observations

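Imprinted genes outside these domains were mostly level or higher in the NPC library. Of 39 listed, 38 were in the annotation and 31 had at least 10 exon reads, of which 16 were more than 2-fold higher (24.6% of all genes), none lower (12.8% of all genes) and 15 within 2-fold, with a median log2 ratio of 1.11 beside 0.34 for all genes. Of the 16, 3 passed the minimum only through the NPC library. The retrotransposon-derived *Peg10*, the most abundant, had 1281 ESC and 11130 NPC reads, a ratio of 8.43 (7.96 to 8.94). Paternally expressed *Peg3* had 127 and 1764 reads, a ratio of 13.5 (11.3 to 16.3), and *Mest* 91 and 1184, a ratio of 12.6 (10.2 to 15.8). *Gab1*, a signalling adaptor, had 1.43 (1.32 to 1.55) and *Rian*, a noncoding RNA of the *Dlk1* domain, 1.05 (0.970 to 1.14).

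The other genes beyond 2-fold were *Sfmbt2* (5.59), *Zdbf2* (4.82), *Impact* (4.60), *Ndn* (4.34), *Nespas* (3.68), *Plagl1* (3.34), *Gnas* (2.57), *Grb10* (2.37), *Ube3a* (2.27) and *Mirg* (2.20), each value being the NPC to ESC ratio. *Dio3* and *Zim1* were also higher, on 2 ESC reads each and 31 and 16 NPC reads. *Dlk1* had 2 and 8 reads, a ratio of 3.88 whose interval (0.775 to 37.5) takes in 1. *Kcnk9*, *Rtl1*, *Rasgrf1* and *Nap1l5* had 0 reads in both libraries. With 1 library of each cell type, these values go along with the endoderm and trophoblast markers by design. The part of those markers in them was not tested.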
